A study of Saccharomyces cerevisiae with 28 samples.

Results

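The MNase-seq profile of *sir2* cells arrested in G1 was compared with that of wild-type (WT) cells arrested in G1 over 2001 bases of the yeast ribosomal DNA (rDNA), chromosome XII from 458000 to 460000 of the sacCer3 build. The comparison was chosen by sample label and column name, and uses 2 of the 28 libraries of the series, with 1 library of each genotype. The series asks how the histone deacetylase Sir2 affects chromatin and replication complexes at the rDNA origin, with MNase-seq, Mcm2-ChEC and sonicated DNA from *Saccharomyces cerevisiae*. MNase-seq sequences the DNA that bound proteins or nucleosomes shield from micrococcal nuclease, and its value here is the read depth at each base. Both strains were *MATa his3 leu2 met15 ura3 hmlα::HygR*, and the mutant also carried *sir2Δ::KanMx*, so the *hmlα* marker is shared. Both cultures were arrested with alpha-factor and crosslinked with formaldehyde, and both column names give 7.5 U of nuclease. Other pairs of libraries are given for comparison. One is *sir2* against WT in G2 (the same strains in nocodazole, with 3.75 U), which has the same genotype difference and so is no background for it. Another is *cdc6-1* cells (*cdc6-1(ts)::KanMx*, the other markers of the WT strain but not *hmlα::HygR*, and *SIR2*), held in nocodazole, released into alpha-factor at 23° and digested with 7.5 U, against WT in G1. The remaining pair is sonicated DNA, which has no nuclease footprints, from log-phase cells sorted by flow for G1 DNA content. Its *SIR2* and *sir2* strains are of another background, without the terminator, and share *MATa*, expanded rDNA, *fob1Δ::HIS3*, a chromosome XII right arm deletion marked *HygR*, and the same *can1*, *trp1*, *leu2*, *ade2*, *his3* and *ura3* alleles. The *sir2* strain of this pair also carries *sir2Δ::LEU2* and *hmlαΔ::NAT*. The *SIR2* gene is outside the interval, so the deletion itself could not be checked in these depths.

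The rDNA is a tandem array, and each repeat holds the gene of the large ribosomal precursor RNA, the 5S RNA gene and a pair of spacers. The spacer IGS2 contains the replication origin, called the rARS, where the origin recognition complex and Cdc6 load the Mcm2-7 helicase in G1. It also contains c-pro, an RNA polymerase II promoter that starts a non-coding transcript to the left of the rARS, while the spacer IGS1 contains another such promoter, E-pro. Sir2 removes acetyl groups from histones and silences both promoters. Reb1, a DNA-binding protein, occupies a site near the promoter of the precursor RNA gene, and its footprint is used as the within-library standard.

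By the RefSeq annotation of the same build, the interval starts in the minus-strand gene RDN37-1, which encodes the ribosomal precursor RNA (451575 to 458432, of which 433 bases are in the interval, all in its external transcribed spacer ETS1-1). It crosses the spacer NTS2-1 (458433 to 459675, the IGS2) and the plus-strand 5S RNA gene RDN5-1 (459676 to 459796), and ends after 204 bases of the spacer NTS1-2 (from 459797, the start of IGS1). The origin is annotated as ARS1200-1 (459097 is its last base), is intergenic, and its first base, 458991, is the zero of the distances given here. Distances are negative toward RDN37-1 and positive toward RDN5-1.

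Bases were called higher or lower in *sir2* when the ratio of normalized depths reached 1.5-fold in either direction, and neighbouring called bases formed a run when there were at least 20 of them. The sequences that the comparison turns on are given on the plus strand of the RefSeq reference. Capitals in the Reb1 footprint mark the Reb1 motif TTACCCG, which lies on the minus strand there and reads as its reverse complement.
Reb1 footprint, chrXII:458591-458721: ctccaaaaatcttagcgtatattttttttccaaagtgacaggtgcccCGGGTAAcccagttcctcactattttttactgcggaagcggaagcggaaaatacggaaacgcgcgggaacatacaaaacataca
Capitals in ARS1200-1 mark the match to the ARS consensus, the sequence known to be bound by the origin recognition complex, also on the minus strand.
ARS1200-1, chrXII:458991-459097: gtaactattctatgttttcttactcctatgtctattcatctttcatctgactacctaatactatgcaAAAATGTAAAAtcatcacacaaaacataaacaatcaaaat
In the run where *sir2* was lower, capitals mark bases at which the *sir2*/WT ratio was at most 0.5.
Run 1 (lower), chrXII:458926-459033: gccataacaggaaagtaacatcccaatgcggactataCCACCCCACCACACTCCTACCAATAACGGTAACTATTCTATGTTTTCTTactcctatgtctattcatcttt
In the first 3 runs, from left to right, where *sir2* was higher, capitals mark bases at which the ratio was at least 3.
Run 2 (higher), chrXII:459140-459213: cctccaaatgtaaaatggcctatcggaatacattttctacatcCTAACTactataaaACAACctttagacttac
Run 3 (higher), chrXII:459319-459391: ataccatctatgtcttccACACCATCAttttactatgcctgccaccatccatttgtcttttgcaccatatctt
Run 4 (higher), chrXII:459496-459637: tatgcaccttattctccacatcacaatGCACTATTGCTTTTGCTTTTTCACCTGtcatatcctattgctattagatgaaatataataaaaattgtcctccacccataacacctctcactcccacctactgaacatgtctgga

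Both motifs were searched on both strands, and each had 1 match in the whole interval. The Reb1 motif was found in 0.794% of 92139 reference tiles of the footprint's length, and the ARS consensus in 0.636% of 112808 tiles of the length of ARS1200-1. The footprint motif (458638 to 458644) had a normalized depth of 1.02 in WT and 0.987 in *sir2*, a ratio of 0.971 (95% counting interval 0.946 to 0.998). The ARS consensus match (459058 to 459068) had 0.528 in WT and 0.523 in *sir2*, a ratio of 0.989 (0.961 to 1.02). The depth over the ARS consensus match was thus within 3% of WT in *sir2*, and run 1 ended to the left of that match. The Reb1 motif lies in the footprint whose mean divides each library, so its ratio is held near 1 by that scaling. Scaled to total depth instead, the whole Reb1 footprint had a *sir2*/WT ratio of 0.999.

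In the G1 comparison, scaled to the Reb1 mean or to total depth, the *sir2* profile was lower than WT by 1.5-fold or more in 1 stretch, over the rARS. It was higher by as much in a series of stretches to the right of the rARS that reached the end of the interval. The WT library held 1777673 reads in the interval and the *sir2* library 2042677, taking the depth sum divided by the read length of 50 bases as the number of reads. Mean depth in the Reb1 footprint was 75420 in WT and 86601 in *sir2*. Scaling to the total depth of the interval and scaling to the Reb1 footprint differed by a factor of 1.00073, the same at every base, and the 5 runs had the same bounds under both. Values below are depths divided by the Reb1 mean of the same library. All intervals are 95% intervals that cover counting error only, since the reads of a pair and copies made by PCR are not independent molecules. With 1 library a genotype there is no replicate check and no test.

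Of the 2001 bases, 649 were higher in *sir2* (32.4%) and 109 were lower (5.45%), while 1243 passed neither threshold. All 109 lower bases lay in the window of the second nucleosome, which contains the start of the rARS, and all 649 higher bases lay to the right of that window. None of the 433 bases of RDN37-1 or of the 478 bases between it and that window was called in either direction. The log2 ratio over all bases had a median of 0.05 and a standard deviation of 0.77, with the lowest ratio, 0.401, at 458984 and the highest, 4.97, at 459916.

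**Figure D1:**
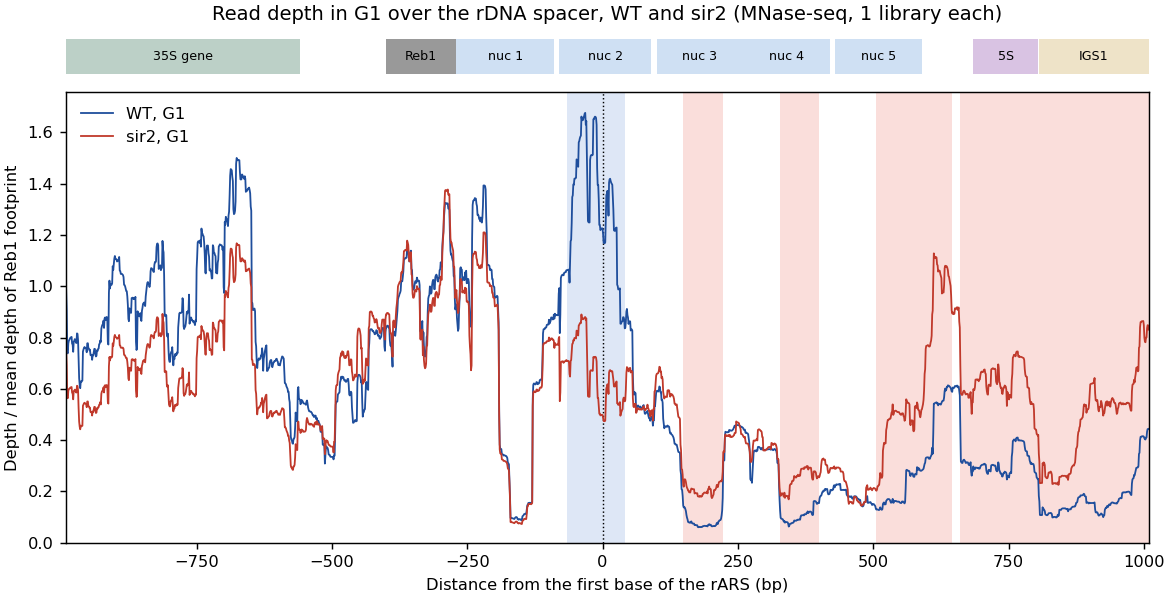
Read depth at each base in G1 for WT (blue) and *sir2* (red), 1 library each, relative to the Reb1 footprint mean of its library; the x axis is the distance in bp from the first base of the rARS. Blue shading marks the run lower in *sir2* and red shading the 4 runs higher in *sir2*. The WT curve has its highest point, 1.68, just left of the rARS, where *sir2* is at 0.880.

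The same thresholds gave smaller counts between the *SIR2* libraries. In *cdc6-1* at 23° over WT, 165 bases were higher (8.25%) and 74 were lower (3.7%), and the standard deviation of the log2 ratio was 0.36. The 165 higher bases all lay right of the second nucleosome window, where *sir2* was also higher, and the 74 lower bases lay between RDN37-1 and that window. The strain, the temperature and the arrest differ between these libraries and cannot be told apart.

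Measured against both *SIR2* libraries at once, 496 of the 2001 bases exceeded both by 1.5-fold and 87 were below both. These are 76.4% of the 649 and 79.8% of the 109 bases already called against WT, which is 1 of those libraries. Against *cdc6-1* at 23° alone, 621 of the 2001 bases were higher and 505 lower, and 417 of the lower ones lay in RDN37-1. The sonicated libraries were scaled to total depth only, unlike the other pairs. In them, 0 bases were higher (0%) and 94 were lower (4.7%), and all 94 lay at 459907 to 460000, where the depth of both sonicated libraries falls to 23. On this scale their region ratios of *sir2* over *SIR2* lay between 0.952 and 1.05, with 0.953 in the Reb1 footprint. In G2, *sir2* over WT gave 582 higher bases (29.1%) and 52 lower bases (2.6%). Of the higher bases, 551 lay right of the second nucleosome window, 1 in it and 30 between RDN37-1 and it.

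The strongest fall in depth in *sir2* was around the rARS base. The depth combines fragments of all sizes, so footprints of the helicase and of nucleosomes are not separated here. Run 1 covered 108 bases, from distance -65 to distance 42 relative to the rARS base, and includes the first 43 bases of ARS1200-1. Its mean depth was 1.32 in WT, 1.20 in *cdc6-1* at 23° and 0.664 in *sir2*. The run was defined by its low *sir2*/WT ratio, which was 0.504 (0.499 to 0.508). Its *sir2*/*cdc6-1* ratio was 0.553. At 49 neighbouring bases of the run the ratio was at most 0.5. In G2 the same bases had 0.511 in WT and 0.418 in *sir2*, a ratio of 0.817. This mean combines unlike bases, with G2 ratios from 0.516 to 1.33. Of the 108 bases, 52 were lower in *sir2* by 1.5-fold or more in G2 as well.

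WT had the highest point of its whole profile in this run, at 458959, where normalized depth was 1.68 in WT and 0.880 in *sir2*. The highest point of the *sir2* profile was in the Reb1 footprint, at 458705, where WT had 1.32 and *sir2* 1.38. At 458772, in the first nucleosome window, depth was 1.39 in WT and 1.21 in *sir2*, and this base was a listed maximum of both libraries.

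Single-base steps showed a block of reads that made up part of the lower depth. A set of fragments that share an end gives a rise in depth and, 50 bases on, a fall of like size where the read ends. The rise at 458968 and the fall at 459018 bound such a block of 50 bases, which spans the rARS base. The rise was 0.244 in WT, 0.158 in *cdc6-1* at 23° and 0.0986 in *sir2*, and the fall was 0.223 in WT and 0.0853 in *sir2*. These were the rise and the fall that differed most in proportion among the 10 steps listed for WT. The largest rise of both libraries, at 458862 in the first nucleosome window, was 0.399 in WT and 0.379 in *sir2*, and the fall at 458654 in the Reb1 footprint was 0.177 in both. In G2 the rise at 458968 was 0.0659 in WT and 0.0301 in *sir2*.

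**Figure D2:**
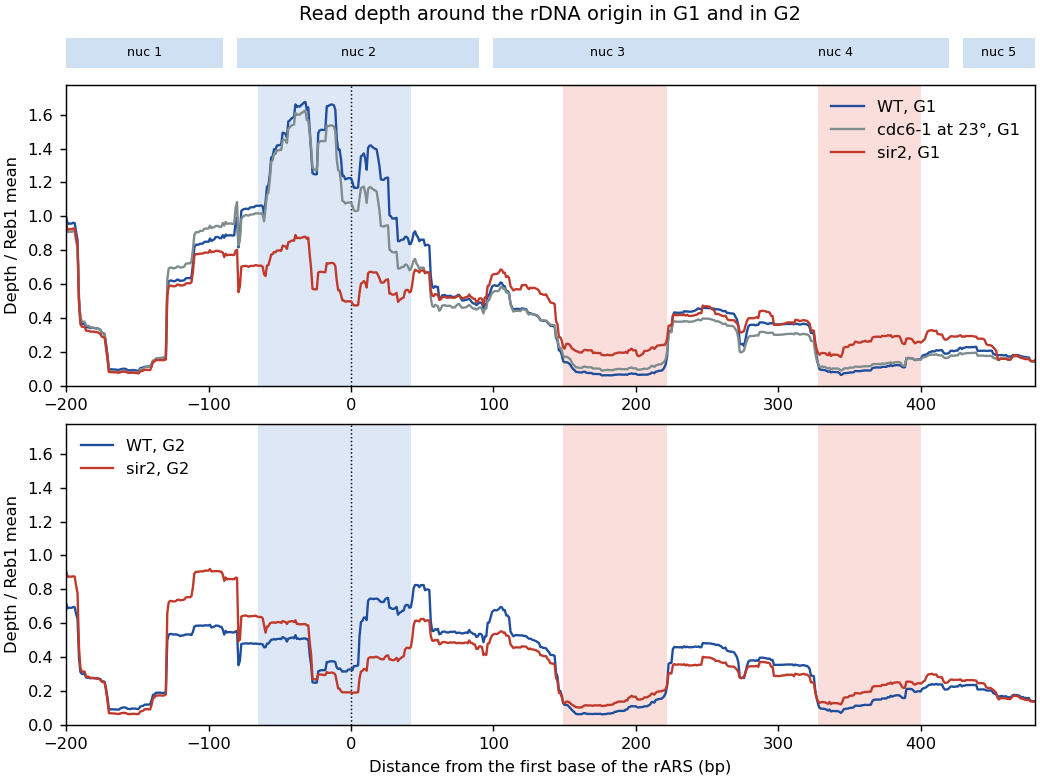
Depth relative to the Reb1 footprint mean around the rARS (x axis in bp, 200 to the left and 480 to the right), for G1 (top: WT blue, *cdc6-1* at 23° grey, *sir2* red) and G2 (bottom: WT blue, *sir2* red), with 1 library per line. Shading marks the G1 runs. In the blue-shaded run WT and *cdc6-1* average 1.32 and 1.20 in G1 and *sir2* 0.664, and in G2 WT averages 0.511 and *sir2* 0.418.

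Over the full window of the second nucleosome (80 bp on the left of the rARS base and 90 bp on the right) depth was 1.10 in WT and 0.638 in *sir2*, a ratio of 0.582 (0.578 to 0.587). The window held 15.9% of all depth in the interval in WT and 9.25% in *sir2* (95% Wilson intervals 15.8% to 16.0% and 9.21% to 9.29%). It went from the nucleosome window with the largest share in WT to one below the first nucleosome window, which held 10.9% in WT and 9.99% in *sir2*. The ratio was lowest around the rARS base and returned to 1 within the window, at 459065, inside the ARS consensus match. The whole of ARS1200-1 had 0.821 in WT and 0.574 in *sir2*, a ratio of 0.698, and in G2 it had 0.628 and 0.451, a ratio of 0.718.

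To the right of the rARS runs 2 and 3 fell in the centres of the third and the fourth nucleosome windows. Run 2, 74 bases from 149 to 222 bp right of the rARS, had a depth of 0.0796 in WT, 0.112 in *cdc6-1* at 23° and 0.207 in *sir2*. Its *sir2*/WT ratio was 2.60 (2.53 to 2.66) and peaked at 3.17 at 459199. It holds the base of lowest depth of the WT interval, 459168, where 4550 reads overlapped, whereas the lowest base of *sir2*, at 6313 reads, was at 458841 in the first nucleosome window. Run 3, 73 bases from 328 to 400 bp right, had 0.105 in WT, 0.122 in *cdc6-1* at 23° and 0.248 in *sir2*, a ratio of 2.37 (2.31 to 2.42). Every base of these runs is past 1.5-fold over WT by definition. At 69 of 74 and 72 of 73 bases *sir2* was also past 1.5-fold over *cdc6-1* at 23°.

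The shoulder between these windows stayed close to WT, while the outer flanks were higher in *sir2*. Between 459223 and 459260, which is this shoulder, the smoothed ratio was under 1. At its lowest in the shoulder the ratio at a single base was 0.900, at 459256. On the outer flanks the ratio was 1.39 over 459120 to 459139 and 1.45 over 459400 to 459419. The ratios of the whole windows were below those of their centres. The third nucleosome window had 0.273 in WT and 0.365 in *sir2*, a ratio of 1.34, and the fourth had 0.223 and 0.309, a ratio of 1.39. Together they had a ratio of 1.36 (1.35 to 1.38), and their 321 bases held 6.73% of the depth in WT and 9.17% in *sir2*. Of those 321 bases 156 were called higher (48.6%) and 0 lower, against 649 and 0 of all 919 bases right of the second nucleosome window. The depth combines fragments of all sizes, and a fragment longer than its pair of reads leaves its middle uncovered, so a higher centre is a change in depth and not by itself in the number of fragments.

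Farther right *sir2* was higher over longer stretches, which included the 5S RNA gene. Run 4, 142 bases from 505 to 646 bp right of the rARS, crosses from the fifth into the sixth nucleosome window. Its depth was 0.308 in WT, 0.331 in *cdc6-1* at 23° and 0.642 in *sir2*, a ratio of 2.08 (2.06 to 2.11), with a peak of 3.22 at 459543. A *sir2* maximum at 459603, with 0.542 in WT and 1.13 in *sir2*, was the fifth highest of the *sir2* profile and was not among the 6 highest of WT. The fifth nucleosome window as a whole had 0.188 in WT and 0.338 in *sir2*, a ratio of 1.80 (1.77 to 1.82), and the sixth had 0.399 and 0.769, a ratio of 1.93.

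Run 5 held 349 bases, from 661 bp right of the rARS to the end of the interval, where it may continue. All 121 bases of RDN5-1, the 5S RNA gene transcribed by RNA polymerase III, were higher, with a depth of 0.312 in WT and 0.626 in *sir2*, a ratio of 2.01 (1.98 to 2.03). All 204 bases of IGS1 in the interval were higher too, with 0.177 in WT and 0.476 in *sir2*, a ratio of 2.69 (2.66 to 2.72). The shares of depth moved accordingly, RDN5-1 from 3.21% to 6.43% and the IGS1 stretch from 3.06% to 8.24%.

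*cdc6-1* at 23° was also higher than WT here, with 0.414 over RDN5-1 and 0.238 over the IGS1 stretch, ratios of 1.32 and 1.34. Against *cdc6-1* the *sir2* ratios were 1.51 for RDN5-1 and 2.01 for the IGS1 stretch. Of the 349 bases of the run, all past 1.5-fold over WT by definition, 215 were also past it over *cdc6-1*. The size of the difference at the right end therefore depended on which *SIR2* library was used. The highest ratio of the interval, at 459916, lies in a part of IGS1 where the sonicated libraries nearly lose their depth.

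**Figure D3:**
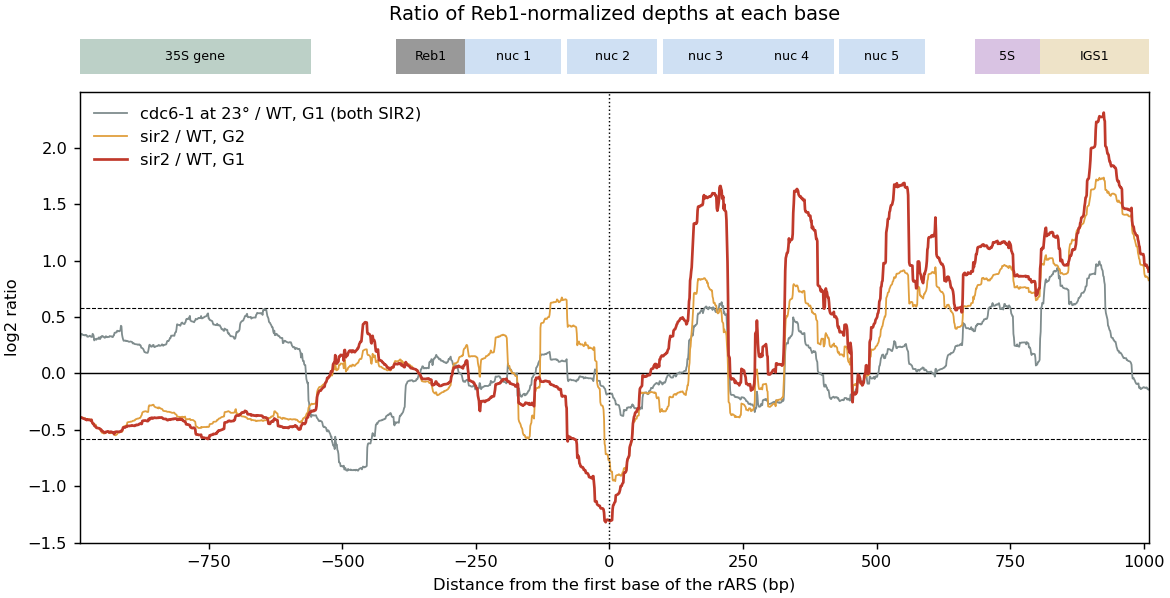
Ratio of Reb1-normalized depths at each base on the log2 scale, for *sir2* over WT in G1 (red), *sir2* over WT in G2 (orange) and *cdc6-1* at 23° over WT in G1 (grey). Dashed lines are 1.5-fold. The red line is lowest at 458984, beside the rARS (ratio 0.401), and highest in IGS1 (ratio 4.97).

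Left of the second nucleosome window the *sir2* and WT profiles in G1 differed less, and no base passed 1.5-fold between them. The start of RDN37-1 was lower in *sir2* over its whole length, between 0.669 and 0.795 of WT at every base. The lowest of these ratios, at 458240, was just short of the 1.5-fold threshold, so the lack of calls in RDN37-1 depends on the scaling. The mean of RDN37-1 was 0.926 in WT and 0.682 in *sir2*, a ratio of 0.737 (0.732 to 0.742), and its share of the depth went from 34.0% to 25.1%. In *cdc6-1* at 23° it was 1.19, a ratio to WT of 1.29, so the *SIR2* libraries differed from each other by nearly as much as *sir2* did from WT, in the other direction. The highest point of the gene, 458315, was the same base in both libraries, and at another of its WT maxima, 458178, depth was 1.18 in WT and 0.892 in *sir2*.

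The spacer between RDN37-1 and the Reb1 footprint, which holds the promoter of the precursor RNA, had 0.575 in WT and 0.622 in *sir2*, a ratio of 1.08 (1.07 to 1.09). In *cdc6-1* at 23° it was 0.389, and the *sir2*/*cdc6-1* ratio was 1.60. Against *cdc6-1*, 87 bases between RDN37-1 and the second nucleosome window were higher in *sir2* by 1.5-fold or more. The first nucleosome window, where c-pro starts, had 0.710 in WT and 0.651 in *sir2*, a ratio of 0.916 (0.908 to 0.924), and 0.698 in *cdc6-1* at 23°. Both differences between WT and *sir2* were small beside those of the runs, and for the promoter spacer smaller than the difference between the *SIR2* libraries.

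The G2 libraries of the same strains gave the following values for the same regions. RDN37-1 had a *sir2*/WT ratio of 0.758 in G2, RDN5-1 of 1.76 and the IGS1 stretch of 2.44. These 3 regions lay on the same side of 1 in both arrests. The second nucleosome window had 0.537 in WT and 0.465 in *sir2* in G2, a ratio of 0.865 against 0.582 in G1. Of its 171 bases, 52 were lower by 1.5-fold or more in G2 and 1 was higher, against 109 and 0 in G1. The stretch of 170 bp left of the rARS had 0.889 in WT and 0.566 in *sir2* in G1, and 0.392 and 0.492 in G2, ratios of 0.637 and 1.25. The third and the fourth nucleosome windows together had a ratio of 0.983 in G2 and 1.36 in G1. Their centres were nevertheless higher in *sir2* in G2 as well. Run 2 had a G2 ratio of 1.47, with 44 of its 74 bases past 1.5-fold, and run 3 had 1.46, with 40 of 73 bases past it. Run 4 had 1.65 in G2, with 119 of 142 bases past 1.5-fold, and ARS1200-1 had nearly the same ratio in both arrests. The difference between arrests was not tested, with 1 library each, and the arrest and the amount of nuclease cannot be told apart.

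**Figure D4:**
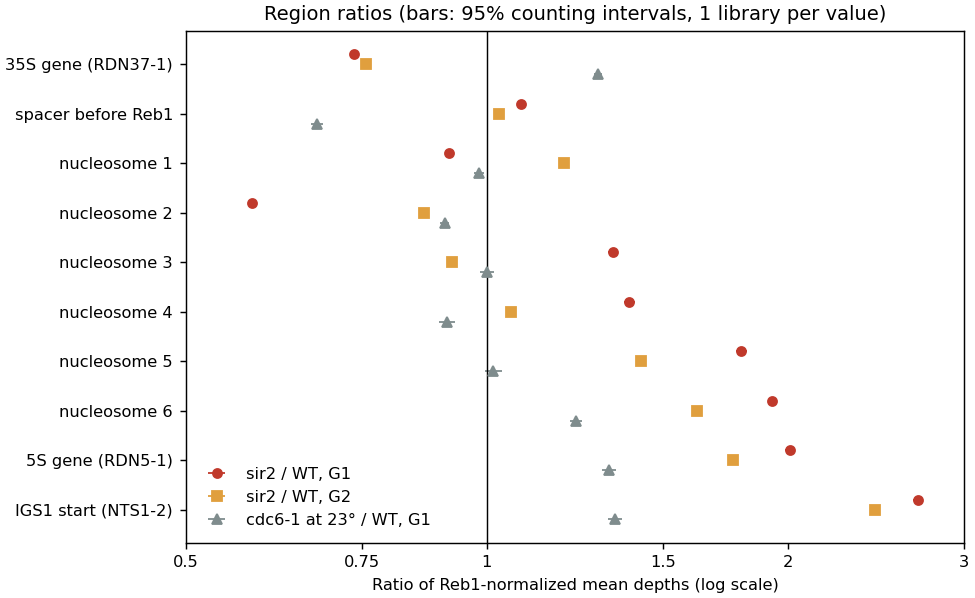
Ratio of mean Reb1-normalized depth in each region on a log axis, for *sir2* over WT in G1 (red circles), *sir2* over WT in G2 (orange squares) and *cdc6-1* at 23° over WT in G1 (grey triangles). Bars are 95% counting intervals, most of them within the symbols. The G1 ratio is lowest in the second nucleosome window (0.582) and highest at the start of IGS1 (2.69).

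Of the 1952 read-length windows in the interval, 1750 (89.7%) occur more than once in the reference, up to 6 times, because the reference holds more than 1 copy of the spacer and of the 5S RNA gene. These windows start at 458000 to 459749, and those farther right occur once. How reads with several places were treated is not given in the sources used here, and it applies to both libraries alike. Shares of depth, maxima and total depth combine bases on both sides of that boundary, while the ratios compare the same bases in both libraries.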

How the data were processed

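Paired-end reads of 50 bases were aligned by the authors with gsnap to sacCer3, and the authors deposited read depth per base (signal, that is coverage) of chromosome XII, 458000 to 460000, without scaling and without selection by fragment size. Picard and bedtools are named in the submitters' processing notes without a role. Versions and the treatment of reads with several places are not given in the sources used here. The sonicated libraries were mapped to a modified reference by their column names. Columns were matched to samples by name and label. Of the table's columns, 7 were used and 21 were not. Rises of depth were followed by falls most strongly at 50 bases in 6 of the 7 libraries. In sonicated *sir2* DNA this was at 37 bases, with 50 next, and its ratios do not use the read length. The 5 MNase-seq libraries held 759788 to 2233018 reads in the interval.

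Depth was divided by the mean of the Reb1 footprint (400 to 270 bp left of the rARS) or by total depth. Ratios have log-normal and shares Wilson 95% counting intervals, from depth sums divided by 50. Regions were the annotated features, 6 nucleosome windows (270 to 90 bp left, 80 left to 90 right, and 100 to 260, 260 to 420, 430 to 590 and 600 to 740 bp right of the rARS), runs of 20 or more bases past 1.5-fold, the 6 highest maxima within 30 bp and the 5 largest rises and falls of each library. Ratio crossings used a running mean of 21 bases. The members and windows were chosen with earlier results of these data known. The scripts were tested on simulated reads. Python 3.11.15, numpy 2.4.6, pandas 2.3.3 and matplotlib 3.10.9 were used. Alternatives were other scalings, background subtraction, smoothing, a 2-fold threshold, narrower windows and, added after seeing the data, *cdc6-1* at 23° in place of WT.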

Additional observations from a re-analysis of the deposited data

Results flagged for a closer look

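In 4 regions the *sir2*/WT ratio lay on opposite sides of 1 in G1 and in G2. The G1 ratio divided by the G2 ratio came to 0.767 for the first nucleosome window, 0.508 for the stretch of 170 bp left of the rARS, 1.45 for the third nucleosome window and 1.39 over the third and the fourth together, and these regions overlap in part. The differences were not tested, since each ratio rests on 1 library a side.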

How the results depend on the processing

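Scaling to total depth changed neither count of called bases and moved the 3 main ratios by less than their counting intervals. Scaled to the Reb1 maximum, 164 bases were lower and the ratios were 0.560 (second nucleosome window), 1.31 (the third and the fourth) and 1.93 (RDN5-1). With the lowest depth subtracted they were 223 bases, 0.553, 1.43 and 2.23. Under both of these settings some bases of RDN37-1 passed the lower threshold, and the RDN37-1 ratio was 0.709 and 0.714, in that order. At 2-fold 49 bases were lower. With windows narrowed by 20 bp the ratios were 0.541, 1.38 and 2.03. With *cdc6-1* at 23° in place of WT, added after seeing the data, 505 bases were lower, of which 417 lay in RDN37-1 and 88 in the second nucleosome window. In that setting 621 bases were higher, of which 534 lay right of that window and 87 between RDN37-1 and it. The ratios were 0.642, 1.42 and 1.51. Why the *SIR2* libraries differ was not tested. The count of higher bases was between 443 and 684 under these alternatives. No ratio crossed 1. No paired analysis was possible because the labels give no replicate numbers and each genotype has 1 library, and no replicate could be left out. Depth limits the counting intervals only, and the spread between cultures is unknown.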
